A study of Mus musculus with 10 samples.

Results

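The 31 genes described here are Trp53, which encodes the transcription factor p53, 4 genes tied to it in feedback, and 26 other genes known as its targets, out of 23388 genes listed in every deposited table. They were chosen by name as genes of the p53 pathway, with earlier results of these data known, and no measured value entered the rule. By role they fall into 5 feedback genes including Trp53, 6 genes of growth and mitosis, 5 of DNA repair, 9 of death receptors and apoptosis, and 6 of metabolism and stress.

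RNA was sequenced from C2C12 cells, a mouse myoblast line that fuses into myotubes when serum is withdrawn. Huwe1 was knocked down with short hairpins in 3 tables: at day 0 in growth medium, after 6 days in differentiation medium, and after 8 days in differentiation medium. In each of these 1 control library was set against 2 knockdown libraries, made with 1 hairpin each and pooled into a single column. The fourth table compared 1 library of a stable line carrying USP10 cDNA under the EF1a promoter with a control, both after 6 days of differentiation. The day 0 and day 6 controls are labelled wildtype, whereas the day 8 control carried a non-targeting RNA and its knockdown used another pair of hairpins. Hairpins were delivered by lentivirus and followed by puromycin selection throughout, to myoblasts for the day 0 and day 6 cells and to cells that were already differentiating for day 8. In the day 0 and day 6 comparisons the hairpin and the virus and selection that came with it cannot be told apart, because the labels name no hairpin for the controls. Every value is FPKM, that is, a fragment count scaled to transcript length and to the size of the library. Each condition has 1 value, so no difference below has a replicate check and no p-value is given.

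Huwe1 itself went from 38.3 in control to 15.2 FPKM in knockdown at day 0, from 35.1 to 21.9 at day 6 and from 55.4 to 33.0 at day 8, and Usp10 went from 10.3 to 38.3 FPKM in the overexpression table. Usp10 was also higher in the day 6 knockdown, 13.2 to 35.4 FPKM. Depth estimated from the smallest FPKM steps was 21800000, 29900000 and 18100000 fragments for the day 0, 6 and 8 controls, 27600000 for the USP10 library and 7810000 for its control. At the last of these depths 1 FPKM on a transcript of 2000 bases is 15.62 fragments, with an exact Poisson interval of 95% from -43.3% to +63.3%, counting error only. Pooled columns gave no estimate. Skeletal muscle markers were detected in the differentiated controls, and their summed level went from 24980 to 5585 FPKM in the day 6 knockdown, from 19774 to 4151 at day 8 and from 11312 to 5611 with USP10. In such bulk RNA fewer cells of a type and less RNA per cell cannot be told apart.

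p53 is held low in unstressed cells by the ubiquitin ligase Mdm2 and its partner Mdm4, and accumulates as a protein when DNA damage or other stress blocks them. It then binds DNA as a tetramer at pairs of a short repeated element and raises the transcription of genes that halt the cell cycle, repair DNA, trigger apoptosis or adjust metabolism. Mdm2 is itself a target, which closes a feedback loop. Huwe1 is a ubiquitin ligase known to act on p53 among other proteins, and USP10 is a deubiquitinase known to act on p53. RNA levels do not measure the p53 protein.

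To show what the target genes carry close to their start sites, 300-base promoter windows (250 bases before and 50 after the start, RefSeq, GRCm38.p6) were searched for the p53 consensus element of 10 bases, whose pattern reads the same on both strands. Windows were at hand for 24 of the 31 genes. The element was found in 10 of these 24 (41.7%), against 9.55% of all 27025 genes with a window. The 10 matching genes cover feedback (Trp53, Mdm2, Ppm1d, Ccng1), mitosis (Gtse1, Ckap2), repair (Polk), apoptosis (Aen, Ei24) and stress (Sesn1). The elements, in capitals and in the direction of the gene, with the distance of the first base before the start unless stated, were:
Trp53, 75 bases: GGACTTGCCC
Mdm2, 186 bases: GAACTTGCCT
Ppm1d, 132 bases: GAGCTTGCTC
Ccng1, 185 bases: GGGCAAGCCT
Gtse1, 9 bases after the start: GGGCTTGCCT
Ckap2, 203 bases: AGACATGTCC
Polk, 231 bases before an annotated start inside the gene: GAACTAGCCT
Aen, 121 bases before 1 annotated start and 10 bases after another: GGGCTTGTCC
Ei24, 10 bases: GGGCATGCCC
Sesn1, 173 bases before the second of its annotated starts: AAGCTTGTTT

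Polk, Sesn1 and Gtse1 each have 1 more window, at a start farther upstream, that holds no element. Counted by window, 11 of the 36 windows of these genes (30.6%) held an element, against 8.36% of all 32851 windows.

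A pair of elements no more than 13 bases apart with at most 1 mismatch in all, closer to what a p53 tetramer binds, was found in 3 of the 24 genes (12.5%), against 1.24% of all genes. These pairs are shown with the elements in capitals and any spacer in lower case:
Ccng1: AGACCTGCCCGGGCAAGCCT
Polk: GAACTAGCCTcAAACTTATTC
Gtse1: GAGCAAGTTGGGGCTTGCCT

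For 4 genes the 250 bases before the start are given, with the element in capitals where there is one. Ccng1 and Mdm2 hold an element, and Fas and Phlda3, which had the highest day 8 ratios among genes with a window, do not:
Ccng1, chr11:40755287-40755536, minus strand: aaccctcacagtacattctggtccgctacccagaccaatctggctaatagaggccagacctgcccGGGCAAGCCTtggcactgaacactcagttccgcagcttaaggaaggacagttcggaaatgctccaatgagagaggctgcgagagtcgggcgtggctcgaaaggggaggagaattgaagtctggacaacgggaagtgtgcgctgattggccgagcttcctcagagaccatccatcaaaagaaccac
Mdm2, chr10:117710759-117711008, minus strand: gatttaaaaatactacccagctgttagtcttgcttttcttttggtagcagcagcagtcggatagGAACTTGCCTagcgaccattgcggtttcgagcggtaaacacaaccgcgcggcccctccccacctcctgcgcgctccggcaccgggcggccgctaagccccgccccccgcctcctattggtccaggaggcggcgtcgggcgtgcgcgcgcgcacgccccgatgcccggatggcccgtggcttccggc
Fas, chr19:34290409-34290658, plus strand: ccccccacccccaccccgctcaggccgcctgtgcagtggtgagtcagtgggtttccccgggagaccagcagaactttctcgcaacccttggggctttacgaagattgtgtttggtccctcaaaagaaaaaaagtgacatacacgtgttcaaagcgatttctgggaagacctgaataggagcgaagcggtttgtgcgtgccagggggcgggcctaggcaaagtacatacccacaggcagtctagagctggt
Phlda3, chr1:135765835-135766084, plus strand: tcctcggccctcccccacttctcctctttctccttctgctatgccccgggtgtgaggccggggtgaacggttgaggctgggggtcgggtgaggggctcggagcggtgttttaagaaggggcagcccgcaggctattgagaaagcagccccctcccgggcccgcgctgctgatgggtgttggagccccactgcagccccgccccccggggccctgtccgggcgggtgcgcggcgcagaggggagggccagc

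A match is a description of letters and not evidence of binding. Mdm2 and many other targets have known p53 sites within introns or farther upstream, outside these windows. Among the 24 genes, the median log2 ratio in the day 8 knockdown was 0.09 for the 10 with an element and 0.56 for the 14 without, and in the other comparisons the medians were 0.18 and 0.01 (day 0), -0.10 and -0.20 (day 6) and -0.02 and 0.01 (USP10). The genes with an element thus had the lower median at day 8, where the target genes moved most as a group, and with USP10. At day 0 and day 6 they had the higher median. Trp53inp1 and Ddb2, which were among the highest at day 8, have no window and are in neither group. A link between element and ratio was not tested.

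Ratios are log2 of treated over control FPKM after adding 0.01, for genes with at least 1 FPKM in 1 of the columns compared, and a gene was counted when it differed at least 2-fold. On this scale the changes of genes with low values are slightly understated.

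**Figure D1:**
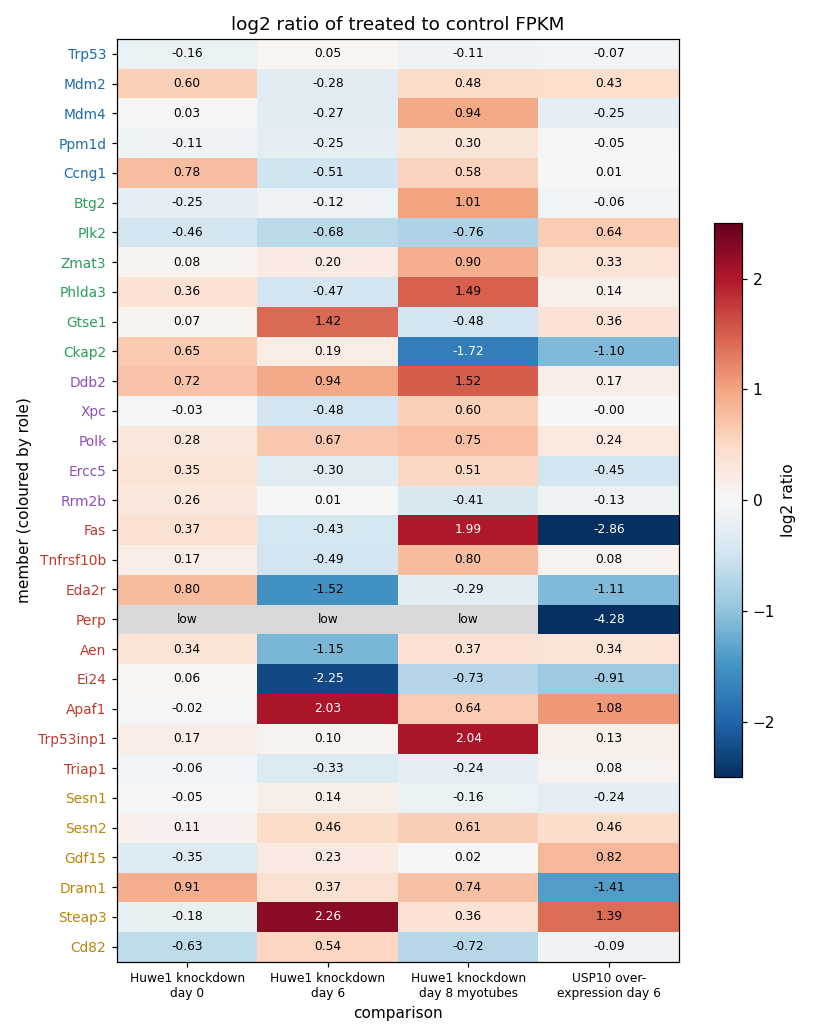
Colour plot of log2 ratios of treated to control FPKM for the 31 genes (rows, names coloured by role) in the 4 comparisons (columns); grey cells marked low are below 1 FPKM in both columns. Cells at least 2-fold higher number 5 in the day 8 column, led by Trp53inp1 (2.04) and Fas (1.99), and 3 in the day 6 column, led by Steap3 (2.26). The Fas row is strongly blue with USP10 (-2.86).

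In day 0 myoblasts none of the 30 expressed genes differed 2-fold after Huwe1 knockdown, against 1.9% of 10874 expressed genes that were higher and 1.69% that were lower (3.6% in all). By any amount 19 of 30 were higher, against 50.3% of all genes, and the median ratio was 0.09 against 0.00. The widest differences were those of Dram1 (0.91), Eda2r (0.80) and Ccng1 (0.78) upwards and Cd82 (-0.63) downwards. Dram1, Ddb2 and Fas were under 1 FPKM in the control and were kept only through the knockdown column, so they could only be higher. With 1 FPKM in both columns 27 genes were left, with a median of 0.07. With 1 FPKM added the ratio of Dram1 was 0.52, under those of Ccng1 (0.77) and Eda2r (0.74).

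At day 6 of differentiation 3 of 30 were at least 2-fold higher in the knockdown (Steap3, Apaf1, Gtse1) and 3 at least 2-fold lower (Ei24, Eda2r, Aen), which are 10.0% each against 17.6% and 13.4% of 11695 genes. Gtse1 (0.379 to 1.03 FPKM) was kept only through the knockdown column, so it could only be higher. The median ratio of the 30 genes was -0.06 (-0.28 with a minimum of 5 FPKM). By any amount 15 of 30 were higher, against 49.7% of all genes. The p53 target genes thus differed 2-fold no more often than genes in general at this stage.

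In day 8 myotubes 5 of 30 were at least 2-fold higher (Trp53inp1, Fas, Ddb2, Phlda3, Btg2), 16.7% against 7.89% of 11755 genes, and 1 was at least 2-fold lower (Ckap2), against 10.0%. In both directions together these are 6 of 30, against 17.9% of all genes. Their median ratio was 0.49 against 0.00 for all genes, and 20 of 30 were higher by any amount, against 50.1%. This was the comparison in which the set as a whole lay farthest from the median gene, with fold changes that remained mostly under 2.

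With USP10 overexpression 2 of 31 were at least 2-fold higher (Steap3, Apaf1), against 9.7% of 11482 genes, and 5 at least 2-fold lower (Perp, Fas, Dram1, Eda2r, Ckap2), 16.1% against 10.0%. Perp (1.31 to 0.0582 FPKM) was kept only through the control column, so it could only be lower. Perp (6.97-fold), Dram1 (3.38-fold) and Fas (3.34-fold) were higher in this control than in the other day 6 control. Fewer genes were lower with a minimum of 5 FPKM. The median ratio was 0.01 against 0.05 for all genes and became -0.04 after centring on the median gene. Higher by any amount were 16 of 31, against 53.3% of all genes, and 15 of 31 after centring.

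**Figure D2:**
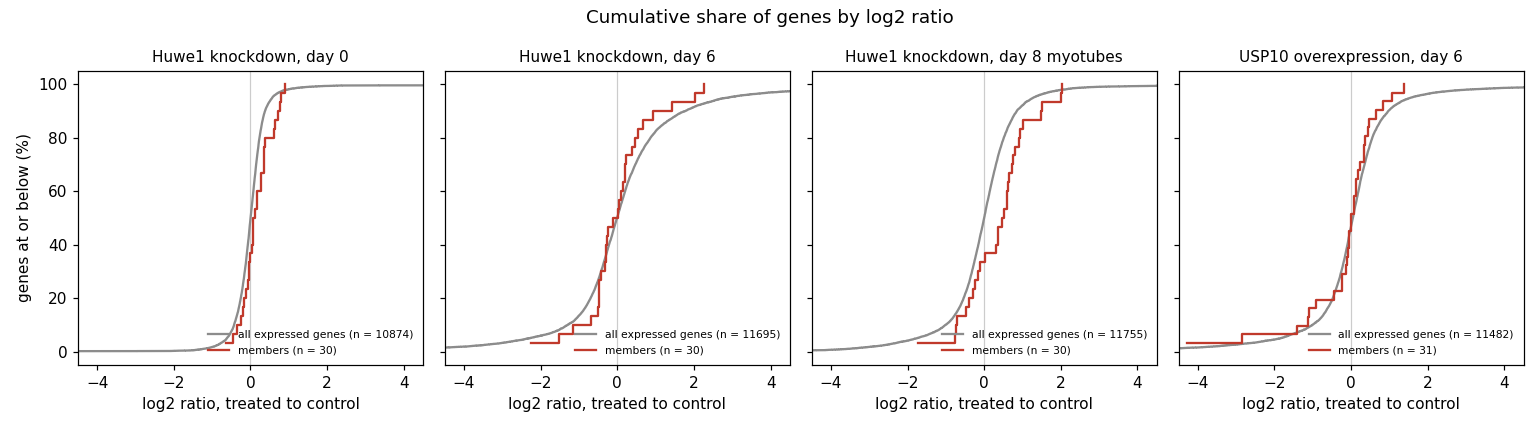
Cumulative share of genes (%) at or below each log2 ratio of treated to control, for the 31 genes that are expressed (red) and for all expressed genes (grey), in the 4 comparisons. The red line runs to the right of the grey one in day 8 myotubes, where the medians are 0.49 and 0.00, and stays close to it at day 6.

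No control culture was replicated within a table. The control columns of both day 6 tables, which were normalized separately, hold different values, but the header of the USP10 table names the same reads as the other, so they may come from a single culture. Their difference shows how far a control value can differ between these tables, and a spread between cultures was not measured. Between them 6 of the 31 genes differed at least 2-fold, against 19.9% of all expressed genes. Gtse1 (3.53-fold), Fas (3.34-fold), Dram1 (3.38-fold) and Perp (6.97-fold) were higher in the control of the USP10 table, and Ei24 (2.51-fold) and Aen (2.07-fold) were higher in the control of the Huwe1 table. Of the 6 genes past 2-fold in the day 6 knockdown, 5 differed from their control by more than this difference between controls, all but Gtse1. Of the 7 with USP10, 6 did, all but Dram1. Genes past 2-fold exceed such a difference more readily than others. Among all expressed genes of the set, 17 of 30 in the day 6 knockdown and 13 of 31 with USP10 exceeded it. No such share of all genes is given, so these counts do not show whether the 31 genes differ from genes in general. Neither the day 0 nor the day 8 table has another control column to set beside it.

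**Figure D3:**
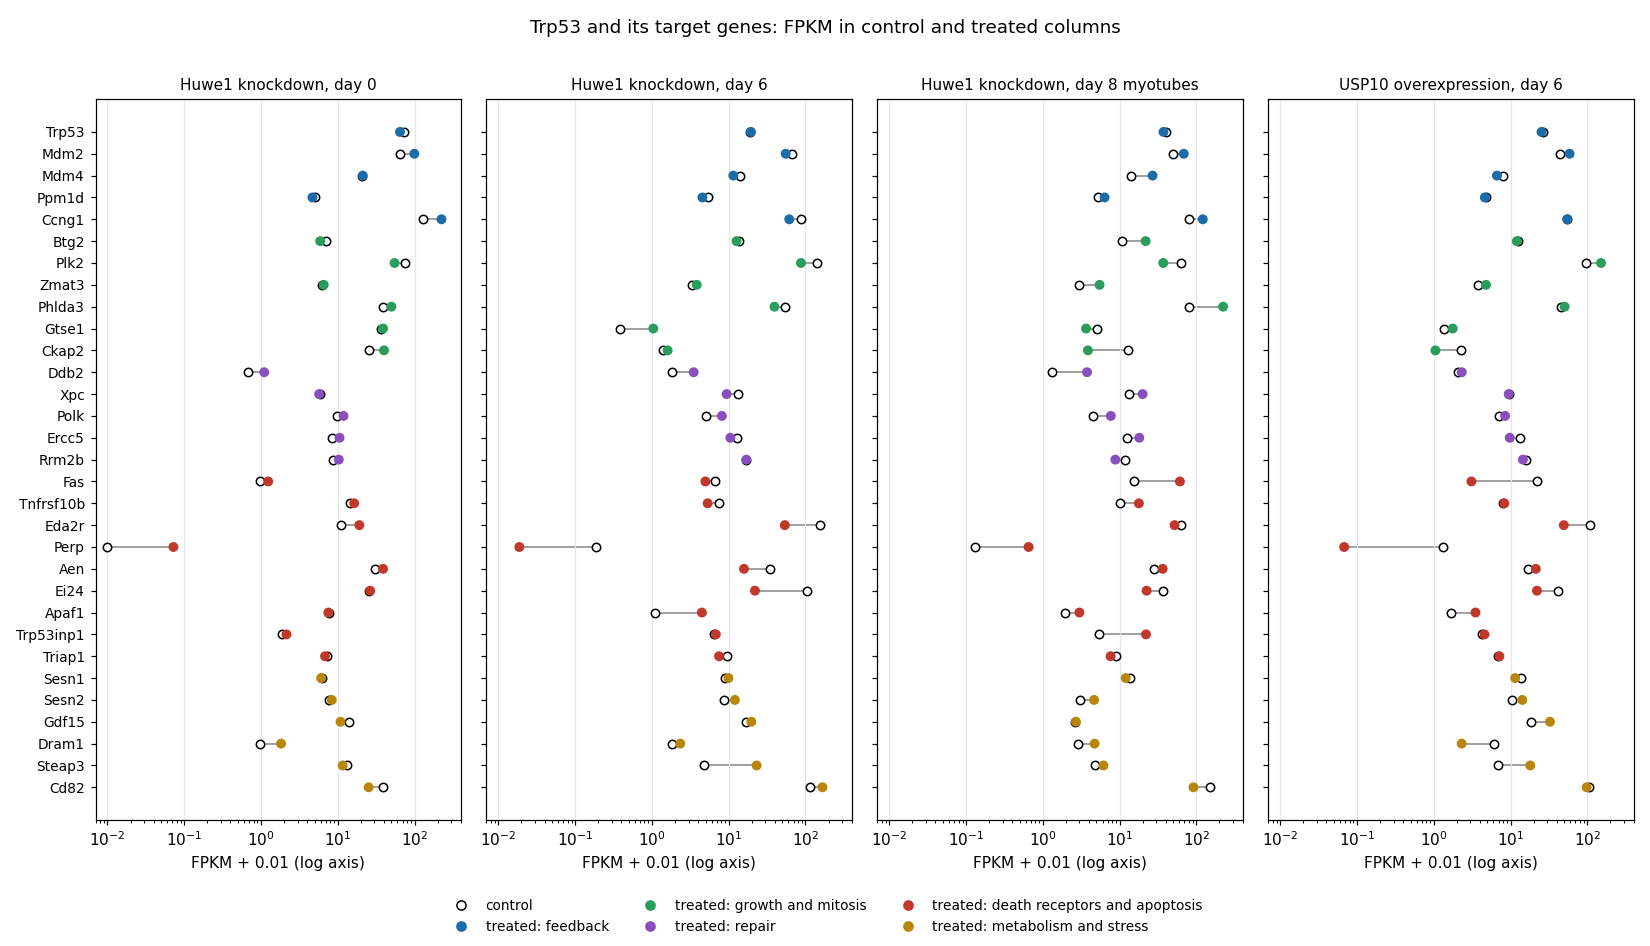
FPKM plus 0.01 (log axis) of each of the 31 genes in the control column (open circles) and the treated column (filled circles, coloured by role) of the 4 tables, joined by a line. Trp53 circles nearly coincide in all 4 panels, while Fas spans 15.3 to 61.0 FPKM in day 8 myotubes and 22.4 to 3.09 FPKM with USP10.

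Trp53, on chromosome 11 from 69580358 to 69591873 in the coordinates of the tables (mm10), had almost the same RNA level with and without each treatment. It was 72.2 in control and 64.7 FPKM in knockdown at day 0, 18.9 and 19.5 at day 6, 40.2 and 37.3 at day 8, and 26.6 and 25.3 with USP10. The ratios of -0.16, 0.05, -0.11 and -0.07 were all smaller than the log2 difference of 0.50 between both day 6 controls. Differences between stages were much larger than those with treatment, since Trp53 was 3.82-fold lower in control cells at day 6 than at day 0, levels set side by side across separately normalized tables.

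Among the genes that act back on p53, Mdm2, the ligase that targets it for degradation, was moderately higher in 3 of the 4 comparisons. Mdm2 (chromosome 10, 117688904 to 117710716) went from 65.5 to 99.4 FPKM at day 0, from 67.3 to 55.3 at day 6, from 49.2 to 68.5 at day 8 and from 43.5 to 58.8 with USP10, with ratios of 0.60, -0.28, 0.48 and 0.43. The day 6 and USP10 ratios are within the log2 difference of 0.63 between the day 6 controls. Ccng1, which encodes cyclin G1, a protein that recruits a phosphatase to Mdm2, ran in parallel with Mdm2 in the knockdowns. Ccng1 (chromosome 11, 40748551 to 40755286) went from 131 to 224 FPKM at day 0, from 87.3 to 61.5 at day 6 and from 80.9 to 121 at day 8, and was level with USP10 at 54.6 and 54.8.

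Mdm4, the Mdm2 relative that masks the activation domain of p53, was nearly 2-fold higher at day 8, from 14.02 to 26.9 FPKM. Its levels at day 0 were 20.7 and 21.1, at day 6 they were 13.9 and 11.5, and with USP10 they were 7.90 and 6.65. Ppm1d, the phosphatase Wip1 that removes activating marks from p53, was low and even, between 4.54 and 6.37 FPKM in all 8 columns. Of the 5 feedback genes 4 were lower at day 6 (median ratio -0.27), against 50.3% of all genes, and 4 were higher at day 8 (median 0.48), against 50.1%, with none past 2-fold in any comparison. As for Mdm2, the day 6 ratios of Mdm4 (-0.27) and Ccng1 (-0.51) are within the log2 differences of 0.81 and 0.68 between the day 6 controls.

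The genes of growth and mitosis divided into those that restrain proliferation and those that are expressed in dividing cells. Phlda3, which competes with Akt for membrane lipid, was the clearest of the former. Phlda3 (chromosome 1, 135766084 to 135769134) went from 79.2 to 223 FPKM at day 8, a 2.82-fold difference. At day 0 it was 38.9 and 49.98, at day 6 it was 54.6 and 39.4, and with USP10 it was 46.1 and 50.6. Its 223 FPKM is above each of the other 7 columns, which lie between 38.9 and 79.2.

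Btg2, an antiproliferative factor that promotes mRNA deadenylation, was also higher only in that table by 2-fold, from 10.8 to 21.8 FPKM, just past the limit at 2.01-fold. Elsewhere it was 7.02 and 5.89 at day 0, 13.8 and 12.6 at day 6, and 12.6 and 12.1 with USP10. Zmat3, an RNA-binding protein, went from 2.92 to 5.48 FPKM at day 8, 1.87-fold, and was 6.23 and 6.56 at day 0, 3.33 and 3.82 at day 6, and 3.79 and 4.79 with USP10. Plk2, a stress-responsive kinase, went the other way in the knockdowns. It was lower in all 3, from 75.3 to 54.9, from 140 to 87.5 and from 62.9 to 37.1 FPKM, and higher with USP10, from 96.7 to 151.

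Gtse1, a microtubule protein of G2 phase that dampens p53, and Ckap2, a spindle protein, followed the stage of the cells. The day 0 control had 37.1 FPKM of Gtse1 and 25.6 of Ckap2, the day 6 control 0.379 and 1.40, and the day 8 control 5.10 and 12.7. In the knockdowns Gtse1 was 38.9 and Ckap2 40.04 FPKM at day 0. Gtse1 was 1.03 in the knockdown at day 6 and 3.65 at day 8, and Ckap2 was 1.59 and 3.86, so that Ckap2 was 3.30-fold lower at day 8. With USP10 Gtse1 was 1.36 and 1.76, and Ckap2 was 2.24 and 1.04.

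Markers of G2 and M phase differed in the same tables, though not in step with both genes. Of the 15 markers, 13 of 14 expressed were at least 2-fold higher in the day 6 knockdown, against 17.6% of all genes. The summed level of the 15 went from 11.7 to 47.1 FPKM. Most of the 13 were under 1 FPKM in the control and were kept only through the knockdown column, so they could only be higher. At day 8 all 15 were at least 2-fold lower (323 to 31.5), against 10.0% of all genes. None passed 2-fold at day 0 (1469 to 1682), against 3.6%, or with USP10 (37.2 to 27.1), against 19.7%. The median marker ratio was 2.01 at day 6, beside 1.42 for Gtse1 and 0.19 for Ckap2, and -3.41 at day 8, beside -0.48 and -1.72. With USP10 it was -0.55, beside 0.36 for Gtse1 and -1.10 for Ckap2. The part of these markers in the Gtse1 and Ckap2 values was not tested.

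Among the repair genes 4 of 5 were higher at day 8, against 50.1% of all genes, with a median ratio of 0.60. Ddb2, the damage sensor of nucleotide excision repair, was higher in all 3 knockdown comparisons, with ratios of 0.72, 0.94 and 1.52. Ddb2 (chromosome 2, 91202911 to 91237066) went from 0.660 to 1.09 FPKM at day 0, from 1.81 to 3.49 at day 6 and from 1.30 to 3.76 at day 8, and was 2.05 and 2.31 with USP10. These levels are low. At day 0 Ddb2 was kept only through the knockdown column, and its ratio there was 0.33 with 1 FPKM added. The gene overlaps Acp2 in the RefSeq annotation, which had ratios of 0.04, 0.30, 0.70 and 0.24, so that reads shared by both genes are an uncertainty.

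Polk, a polymerase that copies past lesions, was higher in all 4 tables, with 9.75 and 11.9 FPKM at day 0, 5.11 and 8.15 at day 6, 4.55 and 7.68 at day 8, and 7.18 and 8.50 with USP10. Xpc, another damage sensor of excision repair, was 5.84 and 5.71 at day 0, 13.1 and 9.401 at day 6, 13.2 and 19.9 at day 8, and 9.48 and 9.47 with USP10. Ercc5, the XPG endonuclease, was lower at day 6 (12.9 to 10.5) and higher at day 8 (12.7 to 18.0), as Xpc was. Its other values were 8.30 and 10.5 FPKM at day 0 and 13.4 and 9.77 with USP10. Rrm2b, the p53-inducible subunit of ribonucleotide reductase, stayed under 1.5-fold throughout, with values between 8.58 and 17.0 FPKM.

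The death receptors did not move as one. Fas, the receptor of Fas ligand (chromosome 19, 34290658 to 34327770), went from 15.3 to 61.0 FPKM in day 8 myotubes, 3.98-fold. It was 0.950 and 1.23 at day 0 and 6.71 and 4.97 at day 6. With USP10 it went from 22.4 to 3.09 FPKM, 7.24-fold lower. The treated level of 3.09 FPKM lies below both day 6 controls, 6.71 and 22.4, so the size of that difference depends on which control is taken.

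Eda2r, a receptor of ectodysplasin A2, was high in differentiated controls and lower after both day 6 treatments. Eda2r (chromosome X, 97333840 to 97377209) went from 155 to 53.8 FPKM with knockdown and from 107 to 49.4 with USP10, 2.87-fold and 2.16-fold lower. At day 8 it was 63.7 and 52.0, and at day 0 it was 11.0 and 19.1. The day 6 control level was 14.1-fold that of day 0, the widest increase with stage among the 30 genes expressed in these controls.

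Tnfrsf10b, the mouse TRAIL receptor, was between 5.31 and 17.8 FPKM in all columns, with its largest ratio at day 8 (10.2 to 17.8, ratio 0.80). Perp, a membrane protein of cell junctions that is induced in apoptosis, was at 0 to 0.643 FPKM in every column of the Huwe1 tables. In the USP10 table it was 1.31 in the control and 0.0582 in the treated column, and the control value rests on few fragments.

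Ei24, an endoplasmic reticulum protein, and Aen, a nuclease of apoptotic cells, were both lower in the day 6 knockdown. Ei24 (chromosome 9, 36779152 to 36797393) went from 105 to 22.0 FPKM, 4.75-fold lower, and was also lower at day 8 (37.1 to 22.5) and with USP10 (41.6 to 22.1), with no such difference at day 0 (25.5 and 26.5). All 3 treated columns after differentiation thus lay near the day 0 level, whereas the controls ranged from 37.1 to 105. Aen went from 35.0 to 15.8 FPKM at day 6, 2.21-fold lower, which narrowly exceeds the 2.07-fold difference between the day 6 controls. It was 30.7 and 38.9 at day 0, 28.2 and 36.4 at day 8, and 16.9 and 21.4 with USP10.

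Apaf1, the scaffold of the apoptosome, showed the reverse order. The day 0 columns held 7.64 and 7.53 FPKM, the day 6 control 1.09 and the day 6 knockdown 4.47, a 4.09-fold difference. With USP10 it went from 1.65 to 3.49, and at day 8 from 1.92 to 2.99. In each of the 3 differentiated comparisons Apaf1 was higher in the treated column and still below the day 0 level. Apaf1 overlaps Ikbip in the annotation, whose day 6 ratio was 1.92 beside 2.03 for Apaf1, so that shared reads are an uncertainty here too.

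Trp53inp1, a stress protein that promotes autophagy and p53-dependent cell death, was the gene with the highest ratio at day 8. It went from 5.36 to 22.1 FPKM there, 4.11-fold, and was even in the other tables, at 1.89 and 2.14, 6.36 and 6.79, and 4.19 and 4.57. Triap1, a mitochondrial protein that restrains apoptosis, stayed between 6.78 and 9.44 FPKM. Of the 8 expressed death and apoptosis genes 6 were lower at day 6, against 50.3% of all genes, and 3 of them at least 2-fold, against 13.4%, with a median of -0.46. Among these lower genes, Fas and Triap1 differed by less than the difference between their day 6 controls, and the others by more. At day 8 5 of the 8 were higher, against 50.1%, and 2 of them at least 2-fold, against 7.89%, with a median of 0.50.

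All 6 genes of metabolism and stress were higher in the day 6 knockdown, against 49.7% of all genes, with a median ratio of 0.42, though only Steap3 passed 2-fold, against 17.6%. The day 6 ratios of Sesn1 (0.14) and Dram1 (0.37) are within the log2 differences of 0.59 and 1.76 between the day 6 controls. Those of the other genes of this group exceed theirs. Steap3, a ferrireductase (chromosome 1, 120226415 to 120271082), went from 4.82 to 23.1 FPKM at day 6, 4.78-fold, and from 6.87 to 18.1 with USP10, 2.63-fold. It was 13.2 and 11.6 at day 0 and 4.79 and 6.16 at day 8. Both treated day 6 columns were above every other column, including those of day 0.

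Sesn1 and Sesn2, the sestrins that restrain mTORC1, behaved differently. Sesn1 stayed under 1.5-fold in all comparisons, between 6.07 and 13.5 FPKM. Sesn2 was higher in the 3 differentiated comparisons, from 8.74 to 12.0, from 3.04 to 4.65 and from 10.3 to 14.2 FPKM, by ratios of 0.46, 0.61 and 0.46, and level at day 0 with 7.73 and 8.35.

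Gdf15, a secreted stress cytokine, went from 18.5 to 32.7 FPKM with USP10, 1.77-fold. It was 13.8 and 10.9 at day 0, 16.8 and 19.7 at day 6, and 2.65 and 2.68 at day 8. Dram1, a lysosomal protein of autophagy, was higher in each knockdown, from 0.964 to 1.82, from 1.80 to 2.33 and from 2.82 to 4.71 FPKM, and lower with USP10, from 6.11 to 2.299. The USP10 difference of 2.65-fold is smaller than the 3.38-fold between the day 6 controls, and Dram1 overlaps Washc3 in the annotation. Cd82, a tetraspanin that suppresses metastasis, went from 39.0 to 25.3 at day 0, from 115 to 166 at day 6, from 151 to 91.7 at day 8 and from 105 to 98.2 with USP10.

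Set side by side over the comparisons, 17 of the 30 genes expressed in all 4 tables stayed under 2-fold in each (56.7%), against 67.1% of the 10147 genes expressed in all 4. Under 1.5-fold throughout were 6 of them (Trp53, Ppm1d, Ercc5, Rrm2b, Triap1, Sesn1), against 36.7% of those genes. By any amount 11 of 30 genes (36.7%) were lower in the day 6 knockdown and higher in the day 8 knockdown, against 20.3% of 11170 genes expressed in both tables. They were Mdm2, Mdm4, Ppm1d, Ccng1, Btg2, Phlda3, Xpc, Ercc5, Fas, Tnfrsf10b and Aen. For Mdm2, Mdm4, Ccng1, Btg2 and Fas the day 6 difference was within that between both day 6 controls. None passed 2-fold in opposite directions at day 6 and day 8, against 2.78% of all genes. The hairpins, the time of infection and the kind of control differ between these tables as well as the day, and these cannot be told apart.

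The treated columns of both day 6 tables, Huwe1 knockdown and USP10 overexpression, had similar levels of these genes. Of the 30 that were expressed in 1 or the other, none differed 2-fold between them, against 9.59% of 11351 expressed genes, and the median difference was -0.01. The tables were normalized separately and the comparison was chosen after the values were seen, so it is a description.

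The controls alone show how these genes lie along differentiation. Between the day 0 and day 6 controls 7 of 30 were at least 2-fold higher at day 6 and 5 at least 2-fold lower, against 21.5% and 23.2% of all genes. Eda2r (14.1-fold), Fas (7.001-fold), Ei24 (4.11-fold), Trp53inp1 (3.34-fold), Cd82 (2.94-fold), Ddb2 (2.72-fold) and Xpc (2.24-fold) were higher, and Gtse1, Ckap2, Apaf1, Trp53 and Steap3 were lower. Between the day 6 and day 8 controls 4 were higher at day 8, namely Gtse1 (13.1-fold), Ckap2 (9.07-fold), Fas (2.28-fold) and Trp53 (2.13-fold), and 5 were lower, namely Gdf15, Sesn2, Ei24, Eda2r and Plk2, against 13.8% and 5.81% of all genes. The day 8 control, with its non-targeting RNA, had a G2 and M phase sum of 323 FPKM beside 11.7 in the day 6 control, so its higher Gtse1 and Ckap2 stand beside more cell cycle RNA in general.

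**Figure D4:**
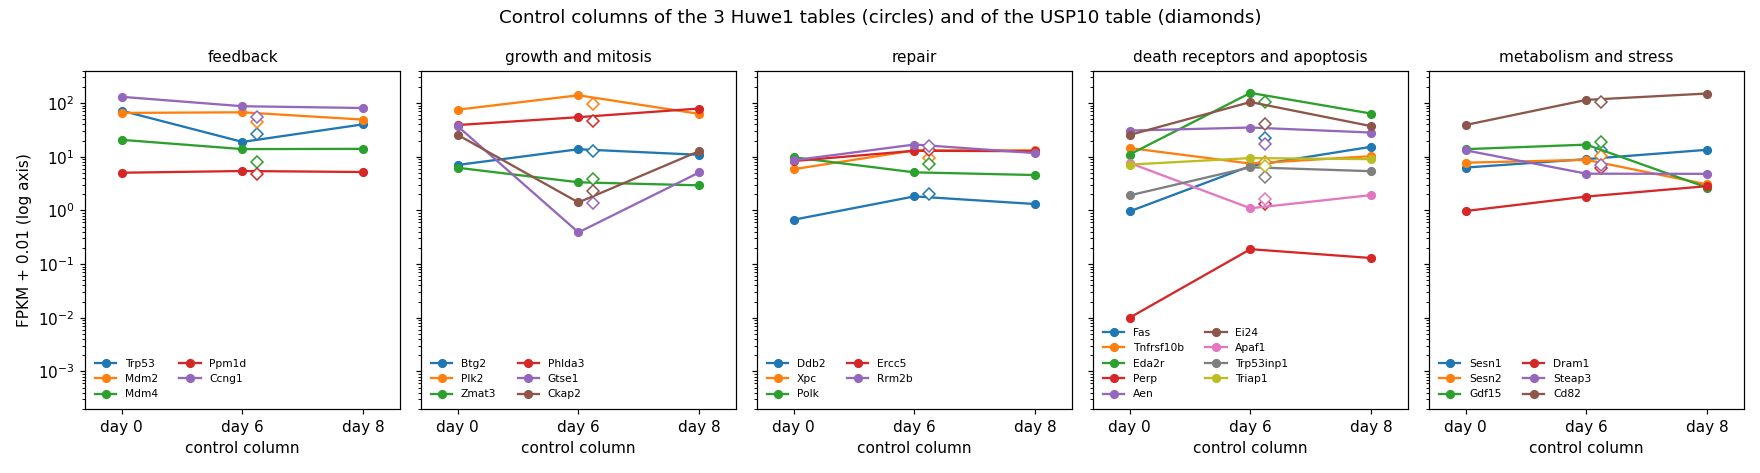
FPKM plus 0.01 (log axis) of the 31 genes in the control columns of day 0, day 6 and day 8 (filled circles joined by lines, 1 line per gene) and in the control column of the USP10 table at day 6 (diamonds), in 5 panels by role. Gtse1 and Ckap2 dip at day 6 (0.379 and 1.40 FPKM), while Eda2r and Ei24 peak there (155 and 105 FPKM).

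Other targets and regulators of p53, listed by name beside the 31 genes, did not share one direction. Of 34 further targets 32 are in the tables. In the day 6 knockdown 7 of 26 expressed were at least 2-fold higher and 6 lower (median 0.20), against 17.6% and 13.4% of all genes. At day 8 they were 6 and 7 of 27 (median 0.06), against 7.89% and 10.0%, at day 0 1 and 1 of 24 (median 0.13), against 1.9% and 1.69%, and with USP10 3 and 0 of 25 (median 0.17), against 9.7% and 10.0%. Of the regulators of p53, 3 of 16 expressed were at least 2-fold higher and 1 lower in the day 6 knockdown (median -0.29), 0 and 2 of 17 at day 8 (median 0.20), 0 and 1 of 16 at day 0 (median -0.03), and 2 and 1 of 16 with USP10 (median -0.04), to be read against the same shares of all genes. These counts include Huwe1 and Usp10 themselves.

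Cdkn1a, the cell cycle inhibitor p21 and a target that myogenic factors also induce, ran against the day 8 pattern. It went from 491 to 201 FPKM in the day 6 knockdown and from 522 to 200 at day 8, while it was 77.8 and 80.7 at day 0 and 286 and 248 with USP10. The skeletal muscle markers moved beside it, with 13 of 14 at least 2-fold lower at day 6 and again at day 8, and 10 of 14 with USP10. Of all genes 13.4%, 10.0% and 10.0% were at least 2-fold lower, in that order. The part of the muscle markers in the Cdkn1a values was not tested.

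Among the classic apoptotic targets Bax, a pore-forming Bcl2 relative, went from 30.2 to 51.8 FPKM at day 8 and from 14.4 to 26.1 with USP10, and was 38.2 and 47.6 at day 0 and 22.7 and 25.7 at day 6. Bbc3, which encodes PUMA, was low, at 3.63 and 2.86 at day 0, 5.08 and 5.94 at day 6, 3.37 and 3.55 at day 8, and 4.49 and 8.31 with USP10. Pmaip1, which encodes NOXA, went from 7.06 to 34.1 at day 6 and from 18.7 to 4.98 at day 8, opposite to Fas and Phlda3 in the day 8 table, and was 12.5 and 8.44 at day 0 and 13.3 and 16.9 with USP10.

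Further genes of these lists passed 2-fold with at least 10 FPKM in 1 column and 1 FPKM in both. Trp63, a p53 relative, went from 14.5 to 1.90 FPKM in the day 6 knockdown and from 10.4 to 3.17 with USP10, and from 25.4 to 0.752 at day 8, where it falls under the limit of 1 FPKM. Gadd45a, a growth arrest protein, went from 1331 to 409 and Pmm1, a mannose enzyme, from 25.4 to 10.7 at day 6. At day 8 Hipk2, a kinase of p53, went from 27.0 to 12.9, Ddit4, an inhibitor of mTORC1, from 21.3 to 9.85, and Pcna, the replication clamp, from 95.8 to 37.5. Pcna stood beside the S phase markers, of which 8 of 15 were at least 2-fold lower at day 8, against 10.0% of all genes. Ephx1, an epoxide hydrolase, was higher in every differentiated comparison, from 28.1 to 192, from 40.1 to 237 and from 86.2 to 220 FPKM. Kitl, the ligand of the Kit receptor, went from 10.1 to 21.2 at day 0 and from 2.63 to 31 with USP10. Its control was under 1 FPKM in the other tables, where it went from 0.656 to 23.3 at day 6 and from 0.908 to 2.97 at day 8. Cdkn2a, whose product ARF restrains Mdm2, was listed at 0 in all columns of the Huwe1 tables and at 0.161 and 0.136 FPKM in the USP10 table.

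Markers of other cells and states moved in the same tables. Interferon response genes were at least 2-fold higher for 13 of 14 expressed in the day 6 knockdown (summed level 24.7 to 192 FPKM), 8 of 11 with USP10 (37.2 to 109), 2 of 7 at day 8 (35.0 to 59.9) and 0 of 7 at day 0. Most of the 13 were under 1 FPKM in the control and were kept only through the knockdown column, so they could only be higher. Of all genes 17.6%, 9.7%, 7.89% and 1.9% were at least 2-fold higher, in that order, which also applies to the next list. Fibroblast and mesenchymal markers were at least 2-fold higher for 9 of 9 at day 6 (143 to 4726 FPKM), 4 of 9 with USP10 (618 to 4230), 2 of 8 at day 8 (747 to 904) and 1 of 7 at day 0 (230 to 165), with Thy1 at 0 in both day 6 columns of the Huwe1 table. Macrophage markers summed to between 1.90 and 7.51 FPKM, with Emr1 at 0 in every column. Their part in the day 6 values of Steap3, Apaf1 and Ei24 was not tested.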

How the data were processed

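Messenger RNA of C2C12 cells was selected with oligo(dT), made into directional libraries with ScriptSeq v2 and sequenced on a HiSeq 2000. The authors mapped reads with Tophat and ran Cuffdiff, and the submitters' processing notes name Bowtie2, Cuffdiff and mm10, with versions and annotation not given in the sources used here. The deposited FPKM values are scaled by the authors to transcript length and library size, separately in each of 4 tables, so levels set across tables are descriptions. The authors' log2 fold changes, test scores, p-values and q-values in the same tables were not used. How Cuffdiff treated strand is not given, so overlapping genes may share fragments.

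Of 10 libraries, 2 knockdown libraries per Huwe1 table are pooled by the authors in 1 column. All 8 FPKM columns were used. The control of the USP10 table has a header naming the same reads as the day 6 control of the Huwe1 table, but its values and estimated depth differ, so it was taken only as a day 6 control. Log2 ratios were computed with 0.01 FPKM added, over genes with at least 1 FPKM in 1 column (11482 to 11755 genes after differentiation), and counted at 2-fold, with no test. Depth was estimated from the lowest FPKM steps of genes with 1 transcript. The 31 genes and all lists were chosen with earlier results of these data known. All 31 were named, with Huwe1, Usp10, Cdkn1a, Bax, Bbc3 and Pmaip1, and genes of the regulator and further target lists at least 2-fold changed with at least 10 FPKM in 1 column and 1 in both. Trp63 at day 8, Kitl at day 6 and day 8, Cdkn2a and the genes overlapping members were added after their values were seen. Promoter sequences and start sites are from RefSeq, GRCm38.p6. A control list of 12 housekeeping genes had median ratios of -0.03, 0.16, -0.38 and 0.25 at day 0, day 6, day 8 and with USP10. Scripts used Python 3.11.15, numpy 2.4.6, pandas 2.3.3, scipy 1.17.1 and matplotlib 3.10.9 and were tested on simulated data. As alternatives, 0.1 or 1 FPKM was added in place of 0.01, the minimum was set to 5 FPKM, to 1 FPKM in both columns or to none, Cuffdiff estimates that were not completed were left out, and ratios were centred on the median gene.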

Additional observations from a re-analysis of the deposited data

How the results depend on the processing

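No paired analysis was possible because the tables hold 1 value per condition, and for the same reason no replicate could be left out. Of 84 recomputed counts and medians of the 31 genes, 77 stayed within the set range. With a minimum of 5 FPKM, 1 gene in place of 3 was at least 2-fold higher in the day 6 knockdown, and with USP10 1 in place of 2 was higher, 3 in place of 5 lower and the median ratio was -0.0020, since only 24 and 23 of the genes reach that level. The day 6 median then was -0.28 in place of -0.06, against -0.05 for all genes. With 1 FPKM added, 1 gene in place of 2 was higher with USP10, since Apaf1 (1.65 to 3.49 FPKM) fell under 2-fold. With no minimum, 1 gene in place of 0 was higher at day 0 (Perp, at 0 in the control). After centring on the median gene, which lay between -0.01 and 0.05, the USP10 median was -0.0432. For single genes 0.1 FPKM added and centring changed none of 121 calls. Adding 1 FPKM took 4 under 2-fold, Gtse1 at day 6 (0.56), Btg2 at day 8 (0.95), and Ckap2 (-0.67) and Apaf1 (0.76) with USP10. The shallow control of the USP10 table, 7810000 fragments, limits the low genes there, and pooled knockdown columns hide any difference between hairpins.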
